A study of Drosophila melanogaster with 2 samples.

Results

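Hemocytes, the blood cells of the fly, were found among single cells of Drosophila larval brains dissected with their eye discs. A cell was called a hemocyte when at least 4 of the 6 genes *Hml*, *NimC1*, *Pxn*, *Col4a1*, *vkg* and *eater* had a UMI (unique molecular identifier, the tag by which each captured transcript is counted once) and when *elav*, *repo*, *wor* and *eya*, which mark neurons, glia, neuroblasts and eye progenitors, all had none. This rule found 75 of 33552 cells, or 0.224%. The rule rests on measured values, so the levels of these 10 genes describe how the cells were chosen and are no finding.

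The labels give 1 library for each of 2 groups, *mirr*>OreR as the control and *mirr*>*ND-42* RNAi (stock BL28894), both from larvae raised for 120 h at 25 °C, while the paper's design section speaks of triplicates and its methods call the control Oregon-R. The *mirr* driver, shared by both labels, is active in dorsal eye cells, and *ND-42* encodes a subunit of mitochondrial complex I. The tables deposited for the 2 samples are identical, with 33552 of 33552 barcodes shared. This leaves a single set of cells of unknown genotype, treated here as 1 library, with no comparison between genotypes and no test. Whether the set mixes both libraries, or groups of cells below differ by library, was not tested. The cells had been freed with trypsin at 37 °C and captured on the 10x platform.

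Most hemocytes of a fly larva are plasmatocytes, macrophage-like cells that take up microbes and dying cells through receptors of the Nimrod and scavenger families and secrete much of the type IV collagen of basement membranes. A minority are crystal cells, which carry the prophenoloxidases needed for melanization, and lamellocytes arise upon wasp parasitism or injury. The GATA factor Serpent (*srp*) is required for the blood fate, and the receptor *Pvr* supports hemocyte survival and migration. Hemocytes circulate in the hemolymph or attach to the body wall and to organs, imaginal discs among them.

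Levels are UMIs per 10000 UMIs of a cell, averaged over cells, and a ratio is the level in hemocytes over that in the 33477 other cells. All 75 cells had UMIs of *Pxn*, a peroxidasin of the extracellular matrix, and of *Col4a1*, a chain of type IV collagen. Its partner chain *vkg* was found in 72 cells, the clotting protein *Hml* (Hemolectin) in 69, and the phagocytosis receptor *eater* in 62. *NimC1*, another phagocytosis receptor, was found in 18 cells only, with 32 UMIs in all. The level of *Hml* was 23.0, with a median over cells of 19.5 and a highest value of 122.

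The label was checked with markers that the rule did not use. Of these, *srp* was found in 62 of 75 hemocytes, at a level of 1.85 against 0.0303 in other cells, and the scavenger receptor *Sr-CI* in 63, at 5.58 against 0.0590. *NimC2*, another such marker, had 6 UMIs in 3 hemocytes. Hemocytes had more UMIs per cell than other cells, with medians of 14876 and 4082. Shares of cells were therefore also compared after each cell had been thinned to 3000 UMIs, which left out 2 hemocytes. Cells with at most 1 of the 6 rule genes served as background, with a median of 4027 UMIs. A UMI of *srp* was then found in 30.1% of 73 hemocytes and in 0.345% of 20292 background cells, against 82.7% and 0.768% before thinning. For *Sr-CI* the thinned shares were 67.1% and 1.07%, against 84.0% and 2.53% before.

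Markers of other cell types differed by type. The 6 neuron markers summed to 1.30 in hemocytes and 27.4 in other cells, and *fne*, an RNA-binding protein of neurons, made up the larger part with 0.713. The 7 glia markers summed to 0.635 against 2.45, and the 7 muscle markers to 0.529 against 0.607. Of the latter, *Mef2* had 45 UMIs in 29 hemocytes and stood at 0.495 against 0.327, *htl* had 1 UMI, and *twi*, *Him*, *Mhc*, *up* and *Act57B* had none. A single UMI came from the 5 fat body markers, which include the larval serum proteins. Disc epithelium markers, 6 genes, summed to 1.98 against 17.5, with 216 UMIs in 58 hemocytes and a highest sum of 37.9 in a cell. These values cover 1 set of cells, and their part in any result was not tested. The Scrublet program called 3 of 75 hemocytes doublets (4%), against 12.8% of other cells.

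At the edge of the rule, 19 hemocytes had exactly 4 of the 6 genes, 41 had 5 and 15 had all 6. The 19 cells just inside had a median of 13690 UMIs and a mean *Hml* level of 11.03. Just outside, 21 cells with 3 rule genes and none of the genes required at 0 had a median of 19932 UMIs and an *Hml* level of 4.996. *Hml* is a gene of the rule, so its level follows in part from this sorting. *Nplp2*, which the rule did not use, stood at 171 in the 19 cells and 143 in the 21 cells.

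The genes required at 0 left out more cells than the rule kept. In all, 176 cells had at least 4 rule genes, and 101 of them were left out. Of these, 96 had a UMI of *elav*, 71 had *elav* as the only gene against them, and 29 of the 96 had just 1 *elav* UMI. The *elav* level in the 101 cells was 2.25, against 9.20 in neurons. These cells had a median of 21433 UMIs, and 27 of them (26.7%) were called doublets. Their *Hml* level was 15.9, with a UMI in 95 of 101 cells. Whether they were doublets, hemocytes with stray *elav* transcripts or both was not tested. They serve below as cells outside the 75, although they met the marker part of the rule.

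**Figure D1:**
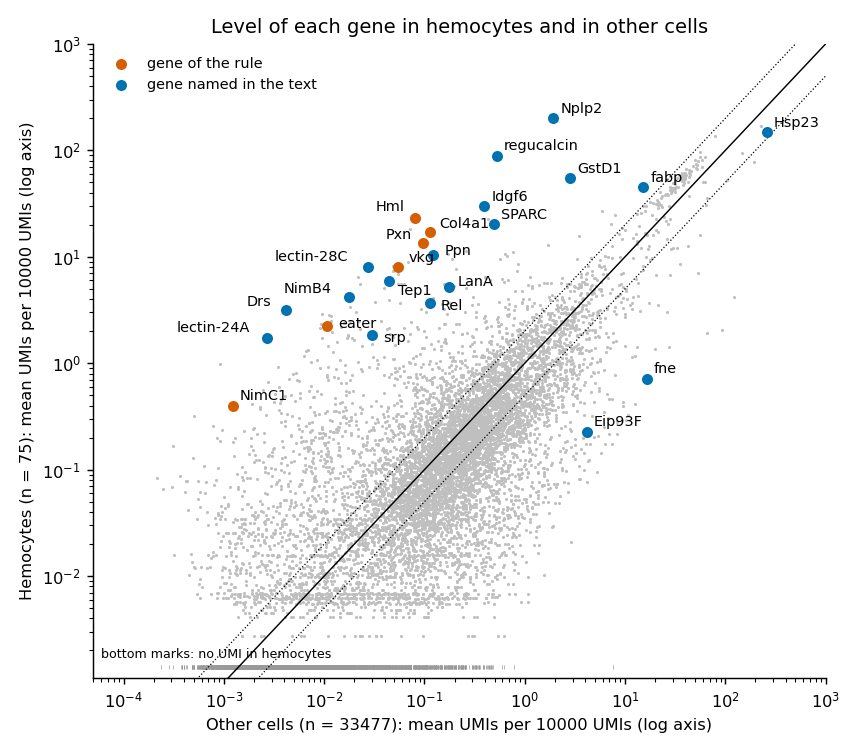
Level of each gene in 75 hemocytes (vertical) against 33477 other cells (horizontal), both as mean UMIs per 10000 UMIs on log axes, with dotted lines at 2-fold and marks at the bottom for genes with no UMI in hemocytes. Orange points are the rule genes with UMIs, and *Nplp2* at 202 and *regucalcin* at 89.4 lie far above the diagonal, while *fne* at 0.713 lies far below it.

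*Nplp2* and *regucalcin* stood out among the abundant transcripts of hemocytes. *Nplp2*, which encodes a small secreted peptide precursor, was the most abundant transcript of hemocytes, with a mean of 201.7, a median of 91.3 and a highest value of 1644. It was found in 74 of 75 cells, made up 1.94% of all hemocyte UMIs and was 105-fold higher than in other cells, or 45.7-fold in pooled UMIs. *regucalcin*, a calcium-binding protein, had a level of 89.4, behind *mt:lrRNA*, *Hsp23*, *Hsp26* and the ribosomal protein genes *RpL41* and *RpLP2* as well, with a median of 81.4 and a ratio of 169 (80.1 in pooled UMIs). It was found in 100% of the 73 thinned hemocytes and in 3.87% of the thinned background cells, while for *Nplp2* these shares were 94.5% and 8.13%.

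Transcripts of these genes were also counted outside hemocytes, in proportions that differed by class. Among the summed UMIs of the 6 rule genes, *Nplp2*, *regucalcin*, *Idgf6* and *Ppn*, *Nplp2* took 50.0% in hemocytes, 54.6% in neurons and 69.1% in cells with at most 1 rule gene, *regucalcin* 24.1%, 18.6% and 8.09%, and *Hml* 5.56%, 3.83% and 0.565%. Of the neurons, 42 had 4 or more rule genes, and these are among the 101 left-out cells. Hemocytes, 0.459% of all UMIs, held 17.4% of the *Nplp2* UMIs of the whole table, 27.0% of those of *regucalcin* and 35.7% of those of *Hml*. The 101 left-out cells counted among the 33477 other cells. They held 3382 of the 4335 *Hml* UMIs of those cells, 15750 of 28345 for *regucalcin* and 29207 of 102914 for *Nplp2*. In cells with at most 1 rule gene the *Hml* level was 0.0223, against 0.0808 in all other cells. The part of free RNA in the levels of other cells was not tested.

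*GstD1*, a glutathione transferase, reached 54.9 against 2.82 in other cells, with a lowest value over hemocytes of 1.45, a median of 45.6 and a highest of 149. *Idgf6*, a chitinase-like growth factor, was found in all 75 hemocytes, at 29.96 against 0.394. *Hsc70-3*, the BiP chaperone of the endoplasmic reticulum, stood at 27.0 against 5.96. The fatty acid binding protein gene *fabp* stood at 45.0 against 15.2, and was higher still in glia at 129.9.

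Across the 12624 features with at least 20 UMIs, 1760 (13.9%) were at least 2-fold higher in hemocytes than in other cells and 6898 (54.6%) were at least 2-fold lower. The median ratio over these features was 0.402. Of the lower features, 3881 had no UMI in hemocytes, and only 282 of these were abundant enough elsewhere that even 3 UMIs in hemocytes would have left them 2-fold lower. Among 5995 features for which at least 10 hemocyte UMIs were expected from the depths, 584 (9.74%) were higher, 2507 (41.8%) were lower, and the median ratio was 0.612. These counts come from the contrast that the rule used and are descriptions.

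The 20 largest ratios among genes with at least 100 hemocyte UMIs included *Hml* and *eater*, which the rule used. The ratio of pooled UMIs was lower by over 1.5 times for 19 of the 20 and ran from 66.2 to 407 over all of them. Of 104 list genes at least 2-fold higher, 37 had a pooled ratio lower by over 1.5 times, and 10 had one under 2. *Drs*, the antifungal peptide drosomycin, had a ratio of 764, but its 256 UMIs lay in 11 cells and the ratio of pooled UMIs was 300.1. *lectin-24A*, a C-type lectin, followed with 646 from 25 cells, and 196 in pooled UMIs. Other C-type lectins were among the 20 highest, *lectin-28C* with a level of 8.07 in 67 cells and a ratio of 294 (147 in pooled UMIs), and *lectin-24Db* with 186 (73.6 in pooled UMIs).

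Several genes of this group were found in most hemocytes. *CG34331* had a UMI in 70 cells at a level of 6.41 and *CG1092* in 66 cells at 2.76. *nAChRbeta3*, named for a subunit of the nicotinic acetylcholine receptor, was found in 62 hemocytes at 2.49, and after thinning in 47.9% of hemocytes and 0.0986% of background cells. *NimB4*, a secreted Nimrod protein, was found in 65 hemocytes at 4.24. *MtnE*, a metallothionein, reached a ratio of 198 although all of its 473 UMIs lay in 1 cell.

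Basement membrane genes were high as a group. Leaving out the rule genes, the 11 genes summed to 58.3 in hemocytes and 3.03 in other cells, a ratio of 19.3 (14.0 in pooled UMIs, 95% counting interval 13.6 to 14.3). Of the 11 genes, 7 were at least 2-fold higher and 3 lower (all features: 13.9% and 54.6%), with a median ratio of 15.4. Every one of the 75 cells had UMIs of the group, from 8.28 to 198 with a median of 55.3.

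The highest of them were the collagen-binding protein *SPARC* at 20.3, the basement membrane glycoprotein *Glt* (glutactin) at 10.6 and the proteoglycan-like papilin (*Ppn*) at 10.4. *SPARC* was found in all 75 cells, with a median of 17.99. *Ppn* was spread unevenly, with no UMI in 16 of 75 cells and a highest value of 68.9. The laminin chains *LanB1*, *LanA* and *LanB2* stood at 6.35, 5.15 and 2.32, with ratios of 15.4, 29.5 and 14.7. *Tig* (Tiggrin), an integrin ligand, reached 2.48 and a ratio of 111.

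Not all matrix genes took part. The laminin alpha chain *wb* stood at 0.0641 against 0.718 in other cells, the collagen XV/XVIII gene *Mp* at 0.0415 against 0.359, and the perlecan gene *trol* at 0.610 against 0.399. Genes that process and export collagen were close to other cells, with a summed ratio of 1.62. Of these, 2 of 11 were at least 2-fold higher, where 13.9% of all features were. These 2 were the lysyl hydroxylase *Plod*, with a ratio of 12.03 in 59 cells, and the protein disulfide isomerase *Pdi*, with 2.11. *PH4alphaEFB*, a prolyl hydroxylase that acts on collagen in the fat body, stood at 0.444 against 0.514, and *Tango1*, which loads collagen for export, at 0.367 against 0.422.

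**Figure D2:**
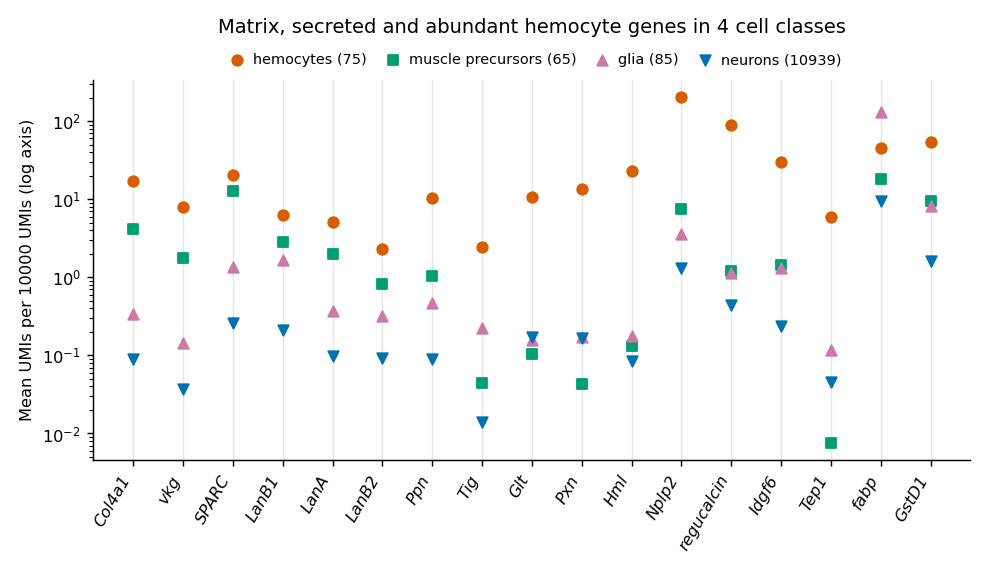
Mean level (UMIs per 10000 UMIs, log axis) of matrix, secreted and abundant genes in 75 hemocytes, 65 muscle precursors, 85 glia and 10939 neurons. *Col4a1*, *vkg*, *Pxn* and *Hml* are rule genes, so their high level in hemocytes follows from how the cells were chosen. Hemocytes are highest for every other gene shown except *fabp*, which is highest in glia. For *SPARC* the muscle precursors come close at 12.8.

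Muscle precursors, called by at least 3 of *Mef2*, *twi*, *Him*, *htl* and *zfh1* without *elav* and *repo*, were the class closest to hemocytes in matrix genes. Their summed level of basement membrane genes was 29.2, so that hemocytes were 1.99-fold higher. *Col4a1*, a gene of the rule, stood at 17.1 in hemocytes, 4.18 in muscle precursors, 0.338 in glia and 0.0900 in neurons. Of the muscle precursors, 46 of 65 had a UMI of it. None of the 65 reached 4 rule genes, but hemocytes had been left out of this class, so that count was largely fixed in advance. *Glt*, *Pxn* and *Tig*, in contrast to the collagens, were below 0.11 in muscle precursors. Against glia, basement membrane genes were 7.47-fold and Nimrod and scavenger receptors 6.85-fold higher in hemocytes, while 347 of 4912 features (7.06%) were at least 2-fold higher.

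Receptors for the uptake of microbes and dying cells were the next group. The Nimrod and scavenger receptors other than *NimC1* and *eater* summed to 17.9 against 0.819, a ratio of 21.8. Of the 15 genes with enough UMIs, 13 were at least 2-fold higher (all features: 13.9%), with a median ratio of 44.3. The other 2, *NimA* and *Sr-CII*, had no UMI in hemocytes. *Sr-CI* was the most abundant at 5.58, with a median of 4.25 and a highest value of 45.9. Next came the secreted *NimB4* at 4.24, *NimB1* at 1.74 and *NimB5* at 1.74, with ratios of 241, 102 and 91.7.

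Receptors for dying cells were less abundant and less particular in level. *drpr* (draper) stood at 0.786 in hemocytes, 0.747 in glia and 0.367 in all other cells, and its ratio was 2.14. The CD36-like receptor *crq* (croquemort) stood at 0.712 against 0.152. *NimC4*, a receptor for dying cells in the embryo, had 1 UMI. *NimC3* was found in 27 hemocytes, with a level of 0.806 and a ratio of 153.

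Opsonins and sensors of bacteria were also higher. Of 13 such genes, 9 were at least 2-fold higher and 3 lower (all features: 13.9% and 54.6%), and the summed ratio was 5.79. *Tep1*, a thioester protein of the complement-like family, was found in 66 cells at 5.98, a ratio of 135, and *Tep4* in 60 cells at 3.20, a ratio of 20.2. *Tep2* had 2 UMIs and *Tep3* none. The peptidoglycan receptors *PGRP-SA*, an activator of Toll signaling, and *PGRP-LC*, the membrane receptor of the Imd pathway, stood at 0.883 and 0.397, with ratios of 37.8 and 13.7.

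Among clot and plasma proteins, 7 of 14 genes were at least 2-fold higher and 7 lower, where 13.9% and 54.6% of all features were. Their sum was carried by *Idgf6*. The chitinase-like growth factors differed widely. Besides *Idgf6* at 29.96, *Idgf3* stood at 3.05, *Idgf2* at 1.90 and *Idgf1* at 0.609, whereas *Idgf4* had 2 UMIs against a level of 0.223 in other cells. The clot proteins *fon* (fondue) and *Tg* (transglutaminase) had no UMI in hemocytes. *Adgf-A*, an adenosine deaminase that acts in the hemolymph, was found in 42 cells, with a ratio of 9.24.

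Components of the Toll and Imd pathways were higher as a group, with a summed ratio of 4.82 and a median ratio of 3.07. Of 16 genes, 9 were at least 2-fold higher and 2 lower (all features: 13.9% and 54.6%). The Toll ligand *spz* (Spätzle) stood at 3.67, in 64 of 75 cells, against 0.0570 elsewhere, a ratio of 64.3. *Rel* (Relish), the NF-kappaB factor of the Imd pathway, stood at 3.68 in 65 cells, a ratio of 32.7. The Toll pathway factors *dl* and *Dif* had ratios of 7.66 and 6.80, and *pirk*, an inhibitor of Imd signaling, 39.1. The receptor *Tl* itself stood at 0.492 against 0.460.

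Antimicrobial peptides were found in few hemocytes. The 14 genes had UMIs in 14 of 75 cells, and their summed ratio of 74.4 fell to 34.1 in pooled UMIs. *Drs* gave 256 UMIs in 11 cells, and 8 of these cells had 5 or more. *Mtk* gave 24 UMIs in 1 cell, *AttD* 8 in 2 cells and *CecA2* 3 in 1 cell. No UMI of *DptA*, *DptB*, *Dro*, *AttC*, *CecA1* or *CecB* was found in the 1117496 UMIs of hemocytes.

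Of 16 growth factor and cytokine genes, 5 were at least 2-fold higher and 9 lower, where 13.9% and 54.6% of all features were, and *spz* made up most of the summed level of 4.73. *Ilp6*, an insulin-like peptide, was found in 23 cells at 0.556, a ratio of 7.17. *upd3*, a cytokine of the Jak-Stat pathway, had 13 UMIs in 10 hemocytes, and a level of 0.135 against 0.00127. Of the Jak-Stat pathway, the factor *Stat92E* stood at 1.60 against 0.456 and its negative regulator *et* (eye transformer) at 0.990 against 0.0343, while the receptor *dome* stood at 0.156 against 0.297. Among 10 transcription factors of blood cells, 3 were at least 2-fold higher, namely *srp* (60.8), its cofactor *ush* (7.39) and the zinc finger factor *zfh1* (6.07), and 5 were lower, *gcm* among them with 2 UMIs.

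Genes of migration and the cytoskeleton differed by member. *Pvr*, the receptor of the PDGF/VEGF family, was found in 57 cells at 1.44 against 0.146. The filamin gene *cher*, the small GTPases *RhoL* and *Rac2*, the integrin beta chain *mys* and the ezrin-like *Moe* had ratios of 15.4, 13.2, 5.02, 4.91 and 4.47. Actin and its regulators were near other cells, with *Act5C* at 45.6 against 34.01, the cofilin *tsr* at 22.6 against 20.2 and the profilin *chic* at 15.9 against 16.7. In all, 7 of 22 genes were at least 2-fold higher and 2 lower (all features: 13.9% and 54.6%).

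Lysosomal genes were at least 2-fold higher in 10 of 22 cases and lower in 2, where 13.9% and 54.6% of all features were. Their summed ratio was 2.68 and their median ratio 1.85. *LManII*, a lysosomal mannosidase, had the largest ratio (34.5, in 61 cells), followed by the cholesterol-binding *Npc2a* (9.27), the proton pump subunit *Vha68-2* (5.77), the sugar transporter-like *spin* (5.14) and the proteases *CtsB1* (5.06) and *cathD* (4.34). In glia the summed level was 40.2 against 46.4 in hemocytes, a ratio of 1.155. Genes of the endoplasmic reticulum and secretion had a summed ratio of 1.97, with 4 of 16 at least 2-fold higher (*Hsc70-3*, *ERp60*, *Pdi* and *SrpRalpha*) and none lower.

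Metabolic genes differed less, where 13.9% of all features were at least 2-fold higher and 54.6% lower. Glycolysis genes had a summed ratio of 1.10 against other cells and 0.419 against glia, with 0 of 12 at least 2-fold higher and 2 lower. These were *Ldh*, with 5 UMIs in hemocytes, and *Pgi*. Nuclear genes of the respiratory chain had a ratio of 1.41, with 3 of 74 at least 2-fold higher and 9 lower, all 9 without a UMI in hemocytes. Lipid genes reached 2.71 through *fabp* and *Npc2a*, while *LpR1*, a lipophorin receptor, had 1 UMI. Of the antioxidant and iron genes, *GstD1* stood apart, while the superoxide dismutases *Sod1* and *Sod2* stood at 4.999 and 1.31 against 5.55 and 1.49. Cytosolic ribosomal protein genes had a ratio of 1.48, with 1 of 88 at least 2-fold higher.

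Of 21 cell cycle genes, 11 were at least 2-fold lower, a share near the 54.6% of all features, and none was 2-fold higher. Their median ratio was 0.496, against 0.402 over all features, and the summed ratio was 0.427 against other cells and 0.384 against muscle precursors. *CycB* stood at 0.156 against 0.495, *CycE* at 0.178 against 0.792, and the replication clamp *PCNA* at 0.546 against 1.23. Transcripts were nonetheless present, with *stg*, the Cdc25 phosphatase that triggers mitosis, in 44 of 75 cells and *Cdk1* in 34. These levels do not say how many hemocytes were cycling.

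Stress and hormone genes divided by kind. The small heat shock genes *Hsp23*, *Hsp26* and *Hsp27* stood at 149, 94.8 and 52.4 in hemocytes against 258, 148 and 104 in other cells, after all cells had been held at 37 °C. The AP-1 factors *kay* and *Jra*, in contrast, had ratios of 10.3 and 6.14, the JNK phosphatase *puc* 2.94 and the translation repressor *Thor* 7.84. Of the ecdysone response, *br* stood at 8.22 against 15.1, *Eip75B* at 4.08 against 9.49 and *Eip93F* at 0.227 against 4.15. Of the 13 genes, 2 were at least 2-fold higher (*Eip74EF* and *MsrA*) and 5 lower, where 13.9% and 54.6% of all features were, and the median ratio was 0.590.

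The lowest genes among those with at least 5000 UMIs elsewhere included genes of neurons. Besides *elav* and *wor*, which the rule required at 0, the POU factor *acj6* (at least 17.4-fold lower, taking 3 UMIs as the limit that 0 allows), the synaptic adhesion protein *Nlg3* (at least 13.0-fold), *beat-IIa* (at least 9.06-fold) and *dpr13* (at least 9.08-fold) had no UMI in hemocytes. These bounds cover counting error only. The 3 genes used to call dorsal eye cells, *mirr*, *ara* and *caup*, had UMIs in 5 of 75 hemocytes (6.67%, median 14876 UMIs per cell) and in 18.6% of other cells (median 4082).

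**Figure D3:**
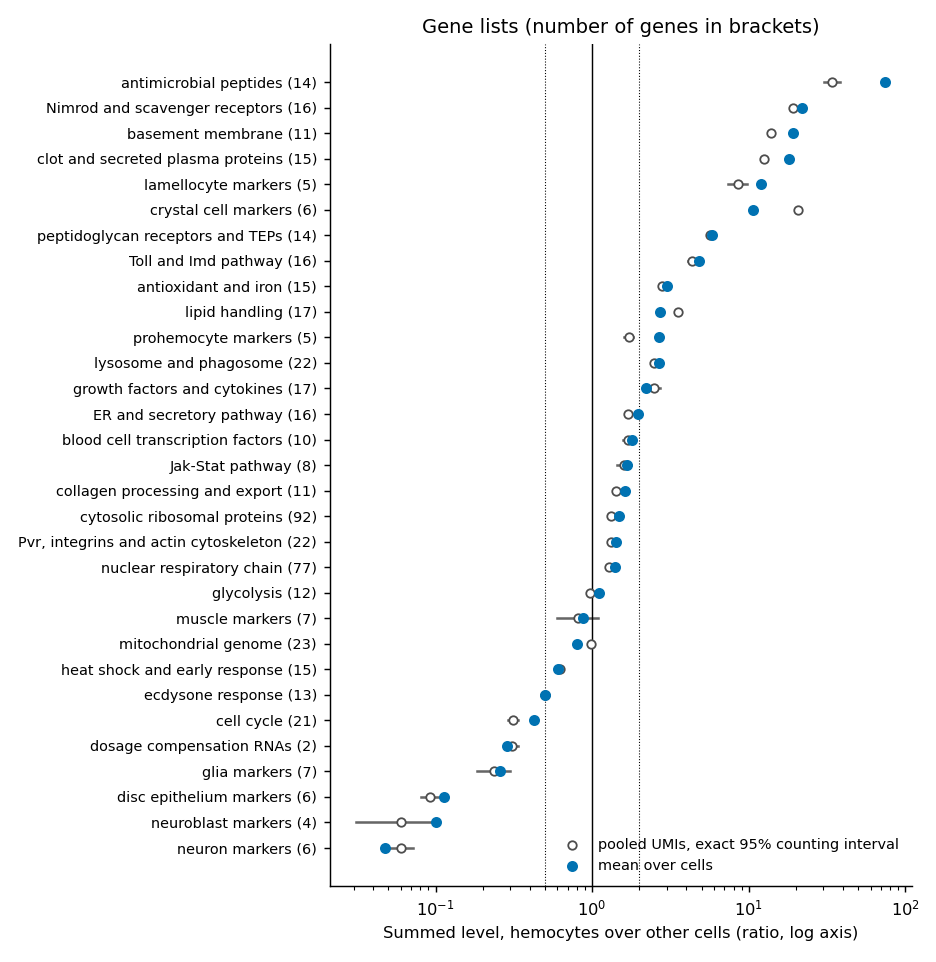
Ratio of the summed level of each gene list in hemocytes over other cells (log axis), as the mean over cells (filled) and in pooled UMIs with its exact 95% counting interval (open), with dotted lines at 2-fold. The Nimrod and scavenger receptors (21.8) and basement membrane genes (19.3) lie far to the right and the neuron markers (0.0473) far to the left, while the mean and pooled values differ most for antimicrobial peptides and crystal cell markers.

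Hemocytes differed among themselves. Clustered alone on variable genes without the rule genes, the 75 cells fell into 4 groups of 27, 21, 18 and 9 cells, called A to D here, with median depths of 12598, 14876, 18264.5 and 19732 UMIs. The genes of each group are those that the clustering used, so their values describe the groups. Among 3608 genes with at least 20 hemocyte UMIs, 666 (18.5%) were at least 2-fold higher in group A than in the other 48 hemocytes and 609 (16.9%) at least 2-fold lower.

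One contrast among the cells was that between *Nplp2* and *Had2*. *Had2* encodes a predicted hydroxyacid dehydrogenase. *Nplp2* stood at 25.7 in group A and 301 in the other hemocytes, and *Had2* at 14.5 and 0.574. Of 16 hemocytes with an *Nplp2* level under 10, 15 had a UMI of *Had2* and 15 belonged to group A. Of 35 with a level of 100 or more, 6 had a UMI of *Had2* and 1 belonged to group A. Between these, 24 cells had levels of 10 to 100, and 17 of them had *Had2*.

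Group A was led by *Drs*, *Ama*, a secreted immunoglobulin-domain protein, the beta-galactosidase *Gal*, the tubulin gene *betaTub60D*, the cuticle protein gene *Cpr49Ac* and *Had2*. *Ama* stood at 9.95 against 0.0638 and was found in 26 of 27 cells of group A and 5 of the 48 others. Of the 11 hemocytes with *Drs*, 9 were in group A. *NimC1*, a rule gene left out of the clustering, had only 32 UMIs in 18 hemocytes. It was found in 14 of 27 cells in group A, 4 of 21 in B and none of 18 in C and 9 in D. *Pxn*, also a rule gene, was found in all.

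Actin, lysosomal and hormone genes were higher in group A. The genes of *Pvr*, integrins and the actin cytoskeleton summed to 196 against 92.3, with the fascin gene *sn* at 6.50 against 0.377 and *Act5C* at 77.3 against 27.7. Lysosomal genes had a ratio of 1.75, and *crq* stood at 1.51 against 0.263. The Nimrod and scavenger receptors together, in contrast, stood at 15.9 against 19.0. Of these, 4 of 11 were at least 2-fold higher and 4 lower (all genes: 18.5% and 16.9%). The ecdysone list had a ratio of 3.16, with *br* at 16.1 against 3.79. Lipid handling genes were at 85.8 against 38.2, with 3 of 7 at least 2-fold higher and 0 lower (all genes: 18.5% and 16.9%). Most of that sum is *fabp*, which made up 45.0 of 55.3 over all hemocytes. The matrix metalloprotease *Mmp1* stood at 4.18 against 0.390.

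Other genes were lower in group A. *Ppn* stood at 2.41 against 14.9, *spz* at 1.52 against 4.88, *Tep1* at 2.26 against 8.07 and *Hml* at 12.1 against 29.2. The unnamed gene *CG8157* stood at 0.739 against 34.9. Nuclear respiratory chain genes had a ratio of 0.598 while transcripts of the mitochondrial genome had 1.77, and cytosolic ribosomal protein genes 0.803. Basement membrane genes as a whole differed little, at 62.1 against 56.2. Group A also had more transcripts of the heat shock list, 547 against 268 (medians 470 and 254). Its medians for cytosolic ribosomal protein genes were closer, at 4030 against 4441. The lowest sums of these genes were 1643 in group A and 3078 outside it. The shallowest cell of group A, with 2107 UMIs, had the highest heat shock sum, 1343, and 14.4% mitochondrial UMIs. It was not alone in group A. Among further cells, 1 had a ribosomal protein share of 18.5% and a heat shock sum of 840, and 1 had 25.7% and 860. Outside group A the heat shock sum reached 883. Median mitochondrial shares were 3.13% in group A and 1.81%, 1.83% and 1.51% in B, C and D. Whether the handling or the quality of the cells took part in these differences was not tested.

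**Figure D4:**
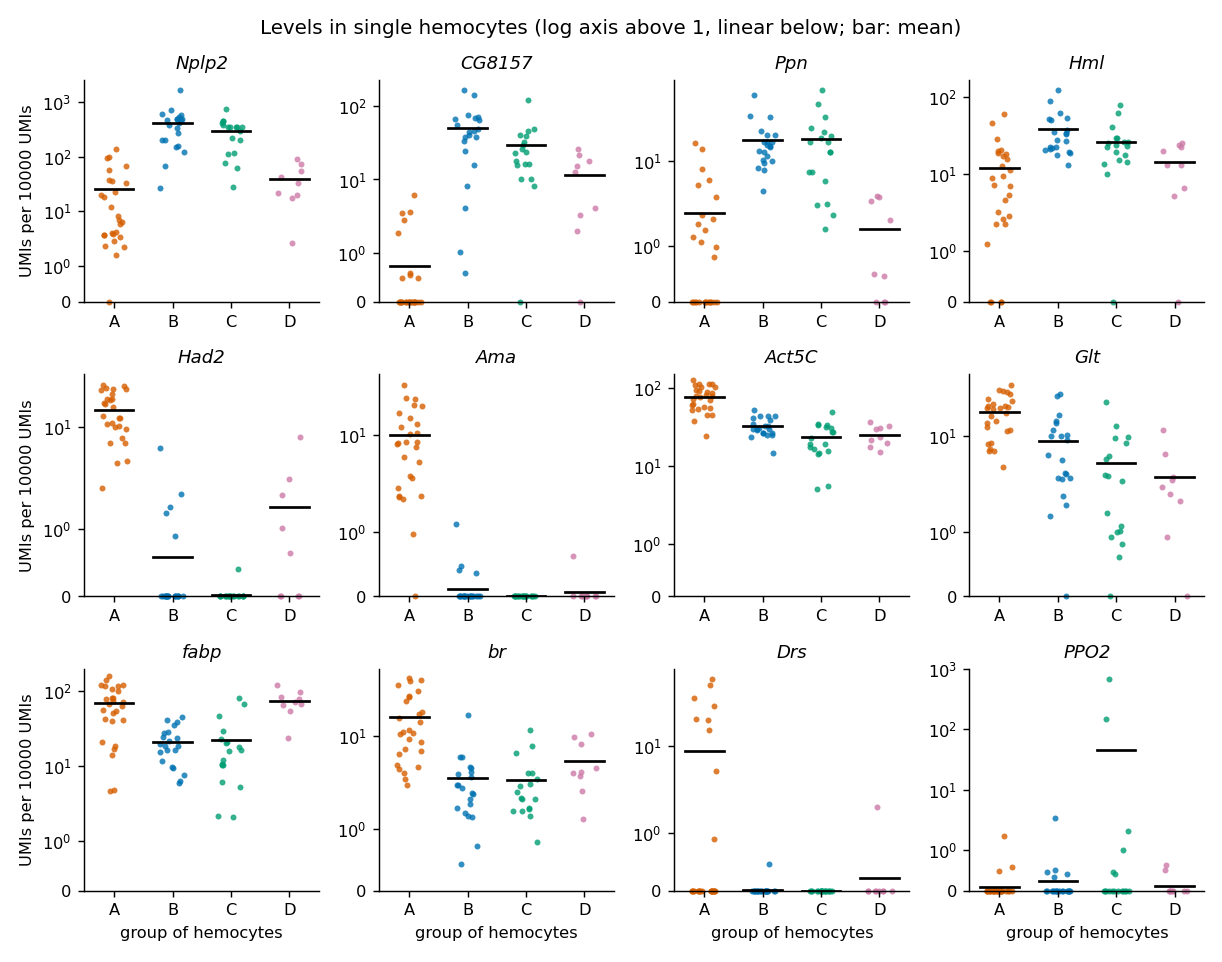
Levels of 12 genes in each of 75 hemocytes (UMIs per 10000 UMIs, log axis above 1 and linear below), by group (A 27, B 21, C 18 and D 9 cells), with bars at the mean. *Had2*, *Ama* and *Act5C* are highest in group A, *Nplp2*, *CG8157* and *Hml* in groups B and C, *Drs* UMIs lie in 11 cells, and *PPO2* in group C rests on 2 cells.

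The opposition of *Nplp2* and *Had2* was also found in cells that the clustering did not use but that met the marker part of the rule. Among the 101 cells left out for *elav*, *repo*, *wor* or *eya*, 35 had at least 3 UMIs of *Had2* and 45 had none, with similar depths (medians of 21433 and 22919 UMIs). *Nplp2* stood at 33.9 in the former and 185.9 in the latter, a pooled ratio of 0.175 with a 95% counting interval of 0.167 to 0.183. *CG8157*, *Ppn* and *stg* were lower beside *Had2*, with ratios of 0.105, 0.245 and 0.280. *Ama*, *Gal*, *sn*, *crq*, *Glt*, *Npc2a*, *fabp* and *Act5C* were higher, with ratios of 45.1, 106, 8.56, 7.09, 4.204, 3.92, 3.10 and 1.98.

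The neuronal gene *elav* stood at 1.68 in the left-out cells with *Had2* and 2.81 in those without it. *Hml*, at 11.97 and 15.1, differed less than *Nplp2*. *Col4a1*, at 17.0 and 8.37, and *Pxn*, at 11.7 and 5.96, were higher beside *Had2*, with ratios of 2.03 and 1.96. In the hemocytes these ratios were 1.23 and 1.04. The hemocytes and the left-out cells came from the same deposited set of cells, and the genes were chosen from the groups among the 75 hemocytes.

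**Figure D5:**
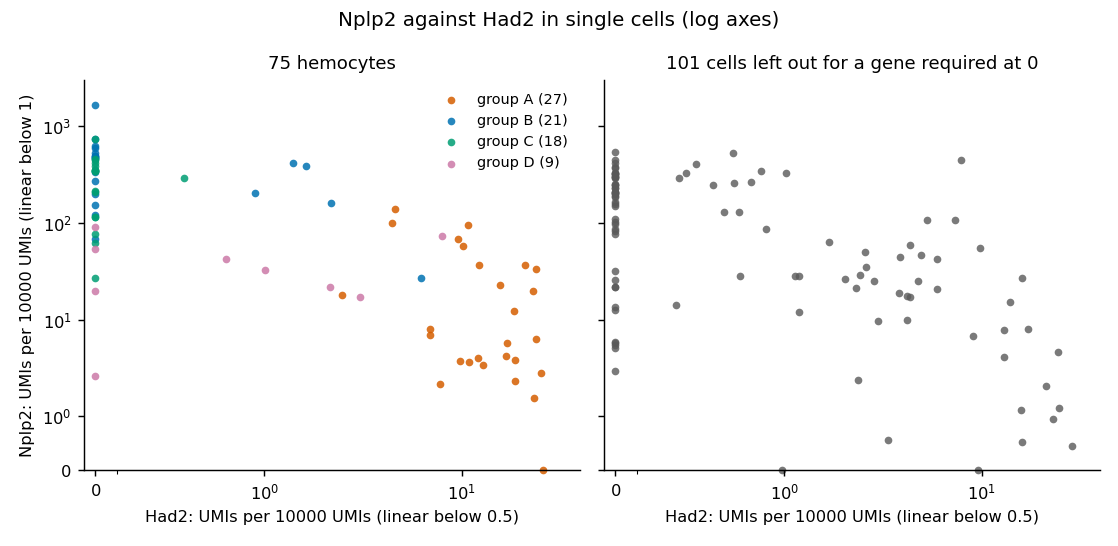
*Nplp2* against *Had2* in single cells (UMIs per 10000 UMIs, log axes with a linear stretch near 0) in the 75 hemocytes, coloured by group, and in the 101 cells left out for a gene required at 0. In both panels cells with high *Had2* mostly have low *Nplp2*, with means of 33.9 with at least 3 *Had2* UMIs and 185.9 without *Had2* in the right panel.

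Groups B and D were less distinct. Group B was led by *CG8157* and *Nplp2* (50.0 and 419, against 11.99 and 117 in the other hemocytes), with *NimB5*, *CG34437*, *CG15093* and *Ppn*, and had the highest *Hml* level, 38.0. Group D was led by *CG42807*, *Eip55E*, *GstD1* (107 against 47.7), *lectin-28C*, *Idgf6* (51.2 against 27.1) and *fabp* (73.6 against 41.1). At a coarser resolution B, C and D merged into 1 group of 48 cells and group A kept its 27 cells.

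Crystal cell transcripts came nearly all from 1 hemocyte. In group C the leading genes were the metallothioneins *MtnB*, *MtnD* and *MtnE*, the prophenoloxidases *PPO1* and *PPO2*, and *CG17109*, and a cell of 48343 UMIs, the deepest of the hemocytes, held 2008 of 2185 UMIs of *PPO1* and 3265 of 3663 of *PPO2*. This cell also had 10 UMIs of *lz*, the Runx factor of crystal cells, and 43 of *peb* (hindsight), beside 73 of *Hml*. Another hemocyte had 173 and 378 UMIs of *PPO1* and *PPO2* and 1 of *lz*. The summed ratio of the crystal cell markers was 10.7, 2.10 without the former cell and 0.538 without the 8 deepest hemocytes, so no direction is given for this list.

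The rule took in few cells of this kind. In the whole table, 18 cells had at least 50 UMIs of *PPO1* and *PPO2*, a limit chosen after the values were seen, and they held 86.9% of all UMIs of the 2 genes. Of the 18 cells, 12 had *lz*. The rule called 2 of them hemocytes, another 5 were left out for a gene required at 0, and 6 had none of the rule genes. Of 5 lamellocyte markers, 4 were at least 2-fold higher and 1 lower (all features: 13.9% and 54.6%). All 9 UMIs of *atilla* lay in 1 hemocyte, *mthl4* had 16 in 10 cells and *PPO3* 5 in 4 cells, while *ItgaPS4* had none. The summed ratio of 11.9 rested mostly on *Mmp1*, at 1.75 against 0.103.

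Of the prohemocyte markers, *Tep4* and *et* were high and *shg* (E-cadherin) low, with a ratio of 0.0796 and 7 UMIs, and the summed ratio of 2.69 fell to 1.72 in pooled UMIs. The roX RNAs, which coat the X chromosome in male flies, had a UMI in 43 of 75 hemocytes (57.3%) and in 64.9% of other cells, at the median depths given above. Their level was lower in hemocytes, 4.19 against 14.8, and 26 hemocytes and 17611 of 33477 other cells had at least 2 UMIs. A roX UMI was found in 16 of 27, 10 of 21, 11 of 18 and 6 of 9 cells of the 4 groups, and at least 5 UMIs in 10, 4, 2 and 6 cells.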

How the data were processed

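Single-cell libraries were made on the 10x platform. Cell Ranger, run by the authors on the BDGP6 genome, gave the UMI counts, and Seurat is named in the processing notes. The deposited table holds the natural log of 1 plus UMIs scaled to 10000 in each cell, over 33552 cells and 15902 features (2017 of them transposable elements). Filters on cells are not given in the sources used here. The log was undone and values were divided by the lowest nonzero value of each cell. The quotients, 100% of them within 0.01 of a whole number, served as UMIs.

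The members, gene lists and named genes were chosen with earlier results of these data known. Named genes are those of the lists and, by size, the 20 highest ratios (at least 100 hemocyte UMIs), the 10 lowest (at least 5000 UMIs elsewhere) and the 6 highest per group. Neurons were called by *elav* and at least 2 of *nSyb*, *Syt1*, *brp* and *fne* without *repo* and *wor*, and glia by *repo* and at least 2 glia markers without *elav*. Intervals are exact (Clopper-Pearson, 95%) and cover counting error only. Scrublet doublets were marked and kept. Groups came from scanpy 1.11.5 and leidenalg 0.10.2 in Python 3.11.15 (2000 variable genes, 20 principal components, 15 neighbours, resolution 1). With 1 set of cells, no p-value was computed. Ratios were tested on simulated data in which all cells of a group followed the same profile, so that test does not cover spread between cells.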

Additional observations from a re-analysis of the deposited data

How the results depend on the processing

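No paired analysis was possible because 1 set of cells without replicates was analysed. The number of hemocytes was 96 with at least 3 rule genes, 56 with at least 5, 15 with all 6, 176 when the genes required at 0 were not used, 83 when the rule was applied after thinning to 3000 UMIs and 72 without called doublets. Features at least 2-fold higher numbered 813 and lower 1781 with a pseudocount of 0.1, and 584 and 2507 with at least 10 expected hemocyte UMIs. Under the other alternatives they numbered 1349 to 1929 and 4771 to 10007. The Leiden groups numbered 2 at a resolution of 0.5 and 10 at 2. The 27 cells of group A stayed together at 0.5, with 1000 variable genes and without the cell richest in prophenoloxidase UMIs, and were split at 2. Lists at least 2-fold higher numbered 12 to 14 and lower 8 to 9 under every alternative run. The crystal cell list turned to 0.538 without the 8 deepest hemocytes, which include both cells richest in prophenoloxidase UMIs, and stood at 2.10 without the richest alone. Transcripts of the mitochondrial genome had a ratio of 0.797, and 1.37 after thinning, which leaves out shallow cells. The comparison cells with at most 1 rule gene, the 10 expected UMIs and the removal of the prophenoloxidase cell were chosen after seeing the data. Depth limits genes with under 3 hemocyte UMIs, and 75 cells of 1 set show no spread between animals.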
